A study of Mus musculus with 18 samples.

Results

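Homing and chemokine receptors were examined as a set of 8 genes in cultured mouse natural killer (NK) cells: Ccr2, Ccr7, Cxcr3, Cxcr4, Cxcr6, Cx3cr1, S1pr1 and S1pr5. They were taken by symbol from the 56953 gene identifiers of the count tables. All 8 matched an Ensembl identifier, and all 8 were among the 16747 genes with enough counts to be tested. The NK cells came from mouse spleen and were kept for 7 days at 1% O2 with 1700 U/ml of recombinant human interleukin 2 (IL-2), and strand-specific mRNA libraries were sequenced. The series addresses how Hif1a and Ahr shape the NK cell transcriptome in low oxygen. The control groups, without Cre, were Hif1a fl/fl (here Hif1a flox), Ahr fl/fl (Ahr flox) and Hif1a fl/fl Ahr fl/fl (Hif1a Ahr flox). The matching knockout groups carried Ncr1 iCre with the same loxP-flanked alleles and are called Hif1a KO, Ahr KO and Hif1a Ahr KO. Each of the 6 groups had 3 biological replicates, giving 18 libraries, and the genotype field of the Ahr floxed controls without Cre is cut short (Ahr fl/f). The ages of the mice are not given in the sources used here. Ncr1 is a gene of NK cells and some other innate lymphoid cells, and no group carried Ncr1 iCre alone, so an effect of Cre and an effect of the deletion cannot be told apart within a line.

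Chemokine receptors and sphingosine-1-phosphate (S1P) receptors are membrane receptors that signal through G proteins and steer lymphocytes along gradients of their ligands. In NK cells CXCR4 reads CXCL12 and retains cells in bone marrow, CXCR6 reads CXCL16 and is known for holding lymphocytes in liver, CXCR3 and CCR2 guide cells to inflamed tissue, and CX3CR1 marks mature circulating cells. CCR7 directs lymphocytes to lymph nodes, while S1PR1 and S1PR5 direct their exit from lymphoid organs and marrow. HIF-1alpha, the product of Hif1a, is the oxygen-regulated subunit of a transcription factor, and the aryl hydrocarbon receptor AhR, the product of Ahr, is a ligand-activated factor of the same protein family that shares its dimer partner.

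Library totals ran from 54420649 to 55732940 estimated counts. Levels below are CPM, counts scaled to a common library size, with the trimmed mean of M values (TMM) as a further factor, and errors beside log2 changes are standard errors (SE). A gene was called, and is said to have risen or fallen, at a Benjamini-Hochberg adjusted p under 0.05 from edgeR's quasi-likelihood test. All 12 NK cell markers were present in all 18 libraries, among them Ncr1 at 100.9 to 257.5 CPM and Gzmb at 9567.9 to 18416.4 CPM. B cell genes stood near 0, with Ms4a1 at 0 in 11 libraries and Pax5 in 15. Counts over the whole gene did not check the deletions: Hif1a went from 60.3 ± 4.28 CPM in its own flox group to 179.8 ± 32 in the matching KO group (SD, n = 3), and Ahr likewise from 76.4 ± 2.35 to 92.1 ± 4.40 CPM. Among the flox groups Ahr was lowest in Hif1a flox, at 31.6 ± 6.7 CPM, beside 66.3 ± 13.1 CPM in Hif1a Ahr flox (SD, n = 3). Ncr1 rose by 0.92 ± 0.10 (log2) in Hif1a KO, by 0.97 ± 0.10 in Ahr KO and by 1.06 ± 0.10 in Hif1a Ahr KO. Hif1a flox replicate 1 and Hif1a Ahr KO replicate 3 stood apart within their groups for Ccr7, S1pr1 and some T cell genes, and the results that rest on them are given with and without them.

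The 8 receptors spanned a wide range of levels in the flox cells. Per kilobase of the median coding transcript, Ccr2 stood highest at 233.2 ± 10.5 CPM per kb in Hif1a flox, 228.1 ± 14.6 in Ahr flox and 215.1 ± 14.6 in Hif1a Ahr flox (SD, n = 3). Cxcr6 came next at 47.1 ± 7.22, 62.7 ± 7.94 and 68.5 ± 17.2 CPM per kb in the same order of lines. Cxcr4 followed at 7.50 to 9.01 and Cxcr3 at 4.31 to 4.75 CPM per kb (group means), then S1pr5 at 1.11 to 1.26. Ccr7 at 0.159 to 0.625, Cx3cr1 at 0.165 to 0.287 and S1pr1 at 0.0569 to 0.228 CPM per kb were the lowest, and their ranges of group means overlapped, so no order is read among these. Between the flox groups of the 3 lines none of the 8 receptors was called by edgeR, by DESeq2 or by limma voom. At an unadjusted p under 0.05, edgeR gave 1 member between Hif1a flox and Ahr flox, 0 between Hif1a Ahr flox and Hif1a flox and 3 between Hif1a Ahr flox and Ahr flox. Of all genes tested 0.251%, 0.0239% and 0.185% were called in these comparisons.

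Deletion of Hif1a was accompanied by less Cxcr4 and Cx3cr1 and more Cxcr3 and Ccr2, deletion of Ahr by less Cxcr3, and deletion of both by less Cxcr6 and Cxcr4 and more Ccr7, S1pr1 and Ccr2. The calls of Cx3cr1 and Ccr2 in Hif1a KO and of S1pr1 in Hif1a Ahr KO did not hold in some fits without 1 library. In Hif1a KO 4 of 8 members were called, 2 higher and 2 lower, where 35.4% of all genes tested were called (17.6% higher and 17.8% lower). In Ahr KO 1 of 8 was called, lower, where 6.92% of all genes were called (2.14% higher and 4.78% lower). In Hif1a Ahr KO 5 of 8 were called, 3 higher and 2 lower, where 31.3% of all genes were called (14.8% higher and 16.5% lower). The median change of the 8 members was 0.07, 0.48 and 0.41 (log2) in the 3 lines in this order, beside -0.01, 0.0 and -0.02 over all genes. With library totals in place of TMM, 65.6% of the calls over all genes in Hif1a KO were higher, against 49.8% with TMM. The KO and flox values did not overlap for 4, 6 and 5 of the 8 members, where 49.8%, 29.0% and 37.2% of all genes did not. Libraries with the same replicate number paired in the Hif1a and the Ahr line, and with the replicate number as a block 7 of 8 members were called in Hif1a KO and 2 of 8 in Ahr KO. The same block called 40.7% of all genes (6814) in Hif1a KO and 14.5% (2423, against 1159 without it) in Ahr KO.

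**Figure D1:**
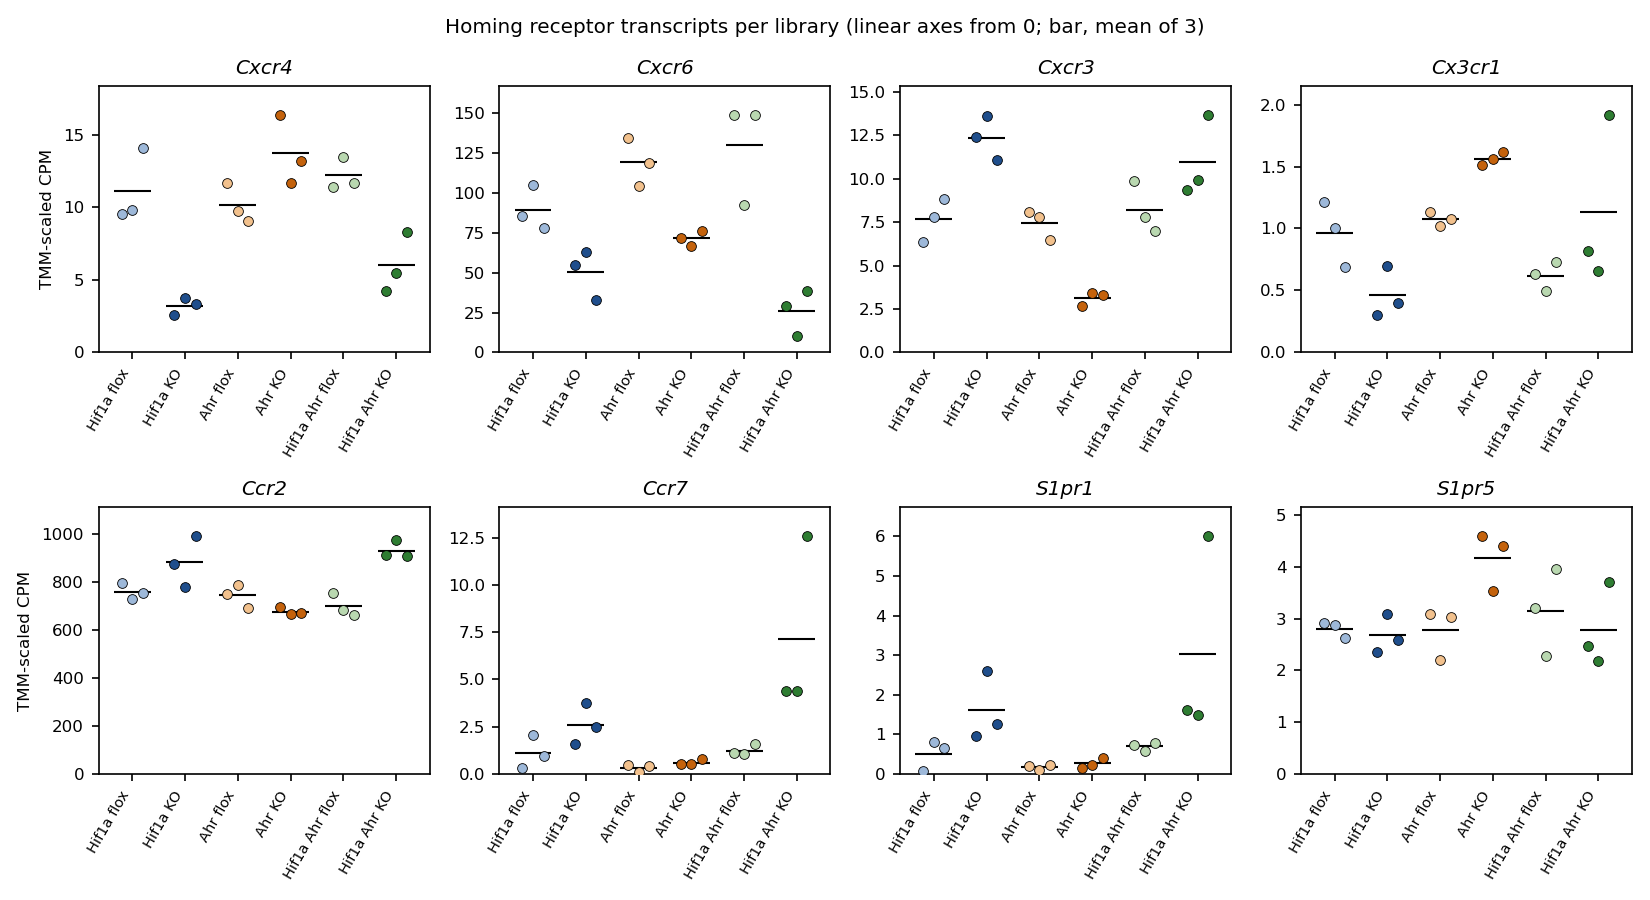
TMM-scaled CPM of the 8 receptors in each of the 18 libraries (points; replicates 1 to 3 from left to right) by group, with the mean of 3 as a bar, on linear axes from 0. Cxcr4 is low in Hif1a KO and Hif1a Ahr KO, Cxcr3 is low in Ahr KO, and 1 Hif1a Ahr KO library stands apart at 12.6 CPM for Ccr7 and 6.01 CPM for S1pr1.

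Cxcr4, the CXCL12 receptor, fell wherever Hif1a was deleted and did not pass the test where Ahr alone was. Its level was 9.52, 9.83 and 14.1 CPM in the Hif1a flox libraries and 2.56, 3.77 and 3.36 CPM in the Hif1a KO libraries. These groups did not overlap, and the change was -1.79 ± 0.23 (log2, adjusted p = 1.74e-05), 3.45-fold lower. In the line with both genes floxed the flox libraries held 11.4, 13.5 and 11.7 CPM and the KO libraries 4.21, 5.50 and 8.32 CPM. Every KO library again lay below every flox library, with a change of -1.02 ± 0.22 (adjusted p = 0.00207), 2.03-fold lower. In the Ahr line it stood at 11.7, 9.72 and 9.04 CPM in flox and 16.4, 11.7 and 13.2 CPM in KO, so the highest flox and the lowest KO library were nearly equal without overlap, and the change of 0.44 ± 0.21 did not pass (adjusted p = 0.262).

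Cxcr6, the receptor of CXCL16, was lowest where both genes were deleted. The Hif1a Ahr flox libraries held 149.3, 92.6 and 149.0 CPM and the Hif1a Ahr KO libraries 28.9, 10.5 and 38.7 CPM. There was no overlap, and Cxcr6 fell by 2.32 ± 0.38 on the log2 scale (adjusted p = 0.000485), 5.01-fold, the KO libraries themselves differing several-fold. In the single lines the values also did not overlap, but the changes did not pass the test. Hif1a flox libraries stood at 85.7, 104.9 and 78.3 CPM and Hif1a KO libraries at 54.7, 63.0 and 32.7 CPM, a change of -0.84 ± 0.37 (adjusted p = 0.0955). Ahr flox libraries stood at 134.4, 104.2 and 119.0 CPM and Ahr KO libraries at 71.7, 66.6 and 76.2 CPM, a change of -0.74 ± 0.36 (adjusted p = 0.28). With the replicate number as a block the Hif1a KO change became -0.88 and passed (adjusted p = 0.013), and with only the 6 libraries of the Ahr line the Ahr KO change passed at -0.74 (adjusted p = 0.00245). Cxcr6 lies within Fyco1 on the other strand with 0 shared exon bases, and Fyco1 itself went from 20.7 ± 5.16 to 17.5 ± 2.01 CPM with both genes deleted (SD, n = 3).

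Cxcr3, the receptor of interferon-induced chemokines, moved in opposite directions in the single lines. It rose in Hif1a KO, from 6.36, 7.81 and 8.84 CPM to 12.4, 13.6 and 11.1 CPM, a change of 0.69 ± 0.16 (log2, adjusted p = 0.0029). It fell in Ahr KO, from 8.07, 7.82 and 6.47 CPM to 2.66, 3.40 and 3.29 CPM, a change of -1.26 ± 0.17 (adjusted p = 0.000224). In both lines the KO and flox libraries did not overlap. With both genes deleted the flox libraries held 9.86, 7.78 and 7.01 CPM and the KO libraries 9.34, 9.93 and 13.7 CPM, which overlapped, and the change of 0.42 ± 0.16 did not pass (adjusted p = 0.0596). DESeq2 called it at 0.43 (adjusted p = 0.0429), and so did edgeR without Hif1a Ahr flox replicate 1 (0.57, adjusted p = 0.0213) or without Hif1a Ahr KO replicate 1 (adjusted p = 0.031). Without Hif1a Ahr KO replicate 3, the highest library, the change was 0.23 (adjusted p = 0.34), and the other alternatives left it uncalled.

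The promoters of these CXC receptors were read for the core letters bound by the 2 factors, since these genes carry the clearest changes. The sequences are the 250 bases before the RefSeq gene start (GRCm38.p6), written 5' to 3' on the gene's strand, with GCGTG in capitals. Cxcr4 lies at chr1:128592300-128592549 on the minus strand, Cxcr3 at chrX:101734148-101734397 on the minus strand and Cxcr6 at chr9:123806227-123806476 on the plus strand.
Cxcr4: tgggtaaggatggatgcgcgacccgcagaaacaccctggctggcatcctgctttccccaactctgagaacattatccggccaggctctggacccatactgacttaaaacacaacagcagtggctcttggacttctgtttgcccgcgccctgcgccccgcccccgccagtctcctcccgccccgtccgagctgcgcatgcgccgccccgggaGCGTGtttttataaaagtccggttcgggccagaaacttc
Cxcr3: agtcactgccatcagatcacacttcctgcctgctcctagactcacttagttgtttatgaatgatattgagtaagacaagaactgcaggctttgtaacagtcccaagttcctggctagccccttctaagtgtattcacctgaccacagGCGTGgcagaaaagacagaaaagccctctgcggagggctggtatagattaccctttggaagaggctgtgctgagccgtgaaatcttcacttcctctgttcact
Cxcr6: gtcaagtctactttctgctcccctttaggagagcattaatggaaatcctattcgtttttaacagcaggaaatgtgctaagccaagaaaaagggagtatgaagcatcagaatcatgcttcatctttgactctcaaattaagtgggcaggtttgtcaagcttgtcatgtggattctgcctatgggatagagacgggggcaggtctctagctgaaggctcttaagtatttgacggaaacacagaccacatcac
The motifs searched on both strands were ACGTG and GCGTG, which differ in their first letter. GCGTG is part of the known core sites of both HIF and AhR, so a match does not tell these apart. GCGTG occurred once in Cxcr4, starting 39 bases before the gene start, and once in Cxcr3, starting 103 bases before it. ACGTG occurred in none of the 6 members with an entry, and the windows of Cxcr6, Ccr2, Cx3cr1 and S1pr5 held neither motif. Of 32851 RefSeq windows of the same length 28.2% held GCGTG, 16.6% ACGTG and 38.6% either, beside 2 of 6 members. Ccr7 and S1pr1 had no entry in the table.

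Cx3cr1, the fractalkine receptor, was scarce and was called, as lower, in Hif1a KO but in neither other line. Its level was 1.21, 1.00 and 0.688 CPM in Hif1a flox and 0.304, 0.698 and 0.397 CPM in Hif1a KO, with the lowest flox just under the highest KO library. The change was -1.05 ± 0.36 (log2, adjusted p = 0.0317), and it was lost when any of Hif1a flox replicates 1 or 2 or Hif1a KO replicates 1 or 3 was left out (adjusted p = 0.0685 to 0.134), and with library totals in place of TMM (adjusted p = 0.0553). In Ahr KO it stood at 1.51, 1.56 and 1.62 CPM, above all of the Ahr flox libraries at 1.13, 1.02 and 1.08 CPM, yet the change of 0.53 ± 0.33 did not pass (adjusted p = 0.401). With both genes deleted it stood at 0.817, 0.657 and 1.92 CPM beside 0.636, 0.492 and 0.728 CPM, with overlap and a change of 0.87 ± 0.35 (adjusted p = 0.0687). Without Hif1a Ahr KO replicate 3, the highest library, that change was 0.25 (adjusted p = 0.614), while it passed without Hif1a Ahr KO replicate 1 (adjusted p = 0.041) or 2 (1.14, adjusted p = 0.0237).

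Ccr2, which carries cells toward CCL2 and related chemokines, was abundant in every library and its changes were small. It held 796.4, 728.5 and 753.3 CPM in Hif1a flox and 872.9, 780.4 and 990.6 CPM in Hif1a KO, with 1 flox library above the lowest KO library. The change of 0.21 ± 0.08 (log2) passed narrowly (adjusted p = 0.0488), but not without any 1 of Hif1a flox replicates 1, 2 or 3 or Hif1a KO replicates 1 or 3 (adjusted p = 0.0565 to 0.287), nor with other size factors (RLE, adjusted p = 0.0502) or the 6 libraries of the line alone (adjusted p = 0.0876). In Hif1a Ahr KO it rose from 754.1, 684.3 and 663.1 CPM to 910.2, 973.9 and 905.6 CPM without overlap, by 0.41 ± 0.08 (adjusted p = 0.000932), 1.33-fold. In the Ahr line the flox libraries stood at 749.2, 787.1 and 692.8 CPM and the KO libraries at 693.5, 665.8 and 668.8 CPM, a change of -0.14 ± 0.08 that did not pass (adjusted p = 0.38).

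Both Ccr2 and Cx3cr1 are also genes of monocytes, whose summed markers were lower in Hif1a KO than in Hif1a flox. The summed level of 6 monocyte and macrophage markers was 4.22 to 9.86 CPM in the flox and 0.869 to 1.87 CPM in the KO libraries of the Hif1a line, 4.42 to 6.0 and 6.86 to 10.5 CPM in the Ahr line, and 2.88 to 9.26 and 2.32 to 4.63 CPM in the line with both. The defining marker Csf1r fell by 3.24 ± 0.72 on the log2 scale in Hif1a KO (adjusted p = 0.00274), while Adgre1 was at 0 in 5 libraries and never above 0.0874 CPM. Summed neutrophil markers, 6 genes, were at 1.35 to 5.74 CPM in flox and 0.0852 to 0.138 CPM in KO libraries of the Hif1a line, 0.466 to 1.69 and 0.513 to 1.37 CPM in the Ahr line, and 0.983 to 5.83 and 0.157 to 0.359 CPM in the line with both. The 4 basophil and mast cell markers, where Mcpt8 carried nearly all of the sum and Fcer1a was at 0 in 13 libraries, summed to 125.5 to 173.4 and 9.27 to 34.6 CPM, 96.8 to 120.5 and 169.9 to 213.7 CPM, and 95.5 to 165.4 and 37.2 to 69.9 CPM in the same order. The monocyte, neutrophil and basophil sums were each lower in all KO than in all flox libraries of the Hif1a line. In the line with both, the neutrophil and basophil sums were lower without overlap, while the monocyte sums overlapped. In Ahr KO the monocyte and basophil sums were higher without overlap, and the neutrophil sums overlapped. The 5 dendritic cell markers summed to 41.4 to 49.3 and 11.5 to 12.5 CPM, 52.3 to 54.2 and 53.9 to 58.2 CPM, and 43.7 to 48.3 and 12 to 15.6 CPM, with Cd209a at 0 in all 18 libraries. H2-Ab1 carried most of the flox sums. Its means were 39.6 and 5.14 CPM in Hif1a flox and KO, and 39.4 and 5.30 CPM in the line with both. Zbtb46 went the other way in these lines without being called, from 5.29 to 6.75 CPM and from 6.16 to 8.66 CPM. The part of such cells in the changes of Cxcr4, Cx3cr1 and Ccr2 was not tested, and in bulk libraries fewer cells of a type and less RNA per cell cannot be told apart.

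Ccr7, the lymph node homing receptor, had means of 0.315 to 1.24 CPM in the flox groups and rose where both genes were deleted. The Hif1a Ahr flox libraries held 1.10, 1.03 and 1.58 CPM and the KO libraries 4.41, 4.41 and 12.6 CPM. All KO libraries lay above all flox libraries, and the change was 2.53 ± 0.59 (log2, adjusted p = 0.00466), 5.78-fold. Without Hif1a Ahr KO replicate 3, the highest library, it was 1.83 and still passed (adjusted p = 0.0249). In the Hif1a line it stood at 0.303, 2.04 and 0.926 CPM in flox and 1.57, 3.73 and 2.46 CPM in KO, which overlapped, and the change of 1.24 ± 0.59 did not pass (adjusted p = 0.123). Without Hif1a flox replicate 1, the lowest library, the change was 0.80 (adjusted p = 0.325). Within each replicate number the KO library was the higher, and with the replicate block the change was 1.39 (adjusted p = 0.00292). It also passed without Hif1a flox replicate 2, at 2.07 (adjusted p = 0.0239). In the Ahr line it was at 0.449, 0.0949 and 0.4 CPM in flox and 0.513, 0.503 and 0.770 CPM in KO, from 5 estimated counts upward, with a change of 0.90 ± 0.75 (adjusted p = 0.569).

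S1pr1, the receptor that carries lymphocytes out along S1P, followed the same pattern at lower levels. It held 0.718, 0.581 and 0.782 CPM in Hif1a Ahr flox and 1.61, 1.49 and 6.01 CPM in Hif1a Ahr KO. These groups did not overlap, and S1pr1 rose by 2.13 ± 0.64 (log2, adjusted p = 0.0202). That call was lost without Hif1a Ahr KO replicate 3 (1.16, adjusted p = 0.152), without Hif1a Ahr flox replicate 1 (adjusted p = 0.056) or 2 (adjusted p = 0.0695), in limma voom (1.81, adjusted p = 0.0521) and without the low-count filter (adjusted p = 0.0644). In the Hif1a line it stood at 0.0757, 0.811 and 0.642 CPM in flox, the first from 4 estimated counts, and 0.951, 2.59 and 1.27 CPM in KO. All KO libraries were the higher, yet the change of 1.65 ± 0.66 did not pass (adjusted p = 0.0693). Without Hif1a flox replicate 1 it was 1.14 (adjusted p = 0.188). It passed in DESeq2 (1.65, adjusted p = 0.023) and with the replicate block (1.74, adjusted p = 0.00769). In the Ahr line the flox libraries were at 0.207, 0.0949 and 0.218 CPM and the KO libraries at 0.147, 0.232 and 0.413 CPM, with overlap (0.59 ± 0.90, adjusted p = 0.794).

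S1pr5, the receptor by which mature NK cells leave marrow and lymph nodes, was not called in any line. It ranged from 2.18 to 3.97 CPM over all but the Ahr KO libraries, which held 4.60, 3.54 and 4.40 CPM beside 3.09, 2.20 and 3.04 CPM in Ahr flox. The Ahr groups did not overlap, and the change of 0.59 ± 0.21 (log2) did not pass (adjusted p = 0.115) but did with the replicate block (0.59, adjusted p = 0.00594). The changes in Hif1a KO and Hif1a Ahr KO were -0.07 ± 0.22 (adjusted p = 0.838) and -0.17 ± 0.22 (adjusted p = 0.599).

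The low T cell transcripts Cd3e, Cd4, Cd8a, Cd8b1, Cd5 and Cd6 all followed Ccr7 and S1pr1 in the libraries that stood apart. Each was lowest within Hif1a flox in replicate 1 and highest within Hif1a Ahr KO in replicate 3. Cd3e was at 0.36, 3.26 and 2.0 CPM in Hif1a flox and 2.06, 0.815 and 6.05 CPM in Hif1a Ahr KO. Cd8a, a T cell gene chosen after its values were seen, was at 0.0318, 3.35 and 1.53 CPM in Hif1a flox and 2.56, 1.40 and 8.44 CPM in Hif1a Ahr KO, so the library lowest for Ccr7 and S1pr1 within Hif1a flox, and the one highest within Hif1a Ahr KO, held the same places for Cd8a. The more abundant T cell markers were mixed. Cd3g was lowest within Hif1a flox in replicate 1, at 41.2 CPM beside 52.8 and 67.6 CPM. It was highest within Hif1a Ahr KO in replicate 3, at 13.1 CPM beside 8.34 and 4.25 CPM, and Cd3d held the same places. Trac was highest in Hif1a Ahr KO replicate 3 but not lowest in Hif1a flox replicate 1. Trbc2 was lowest in Hif1a flox replicate 1 but not highest in Hif1a Ahr KO replicate 3. Trbc1 was lowest in Hif1a Ahr KO replicate 3, at 300.3 CPM beside 314.0 and 320.2 CPM, and Cd28 was highest within Hif1a flox in replicate 1, at 119.9 CPM beside 86.8 and 118.7 CPM. Cd6, another T cell gene, rose in Hif1a Ahr KO by 3.38 ± 0.78 (log2, adjusted p = 0.00416), from 0.233, 0.131 and 0.309 CPM to 1.40, 0.957 and 4.75 CPM. Cd8a itself was not called there (1.16 ± 1.03, adjusted p = 0.443), nor was Cd3e (0.27 ± 0.76, adjusted p = 0.833). Over all genes 35.4% were called in Hif1a KO, 6.92% in Ahr KO and 31.3% in Hif1a Ahr KO. Of 12 T cell markers none rose and 4 fell in Hif1a KO, none rose and 2 fell in Ahr KO, and 1 rose and 2 fell in Hif1a Ahr KO, Cd3g and Cd3d falling in each line, though the Cd3d call in Ahr KO was lost in 5 of 6 fits that left out 1 library, all but the one without Ahr flox replicate 2 (adjusted p up to 0.0692). Their summed level was 597.1 to 669.6 CPM in the flox and 474.1 to 503.4 CPM in the KO libraries of the Hif1a line, 612.6 to 658.6 and 567.3 to 618.6 CPM in the Ahr line, and 617.3 to 665.7 and 582.1 to 603.9 CPM in the line with both, with Cd8b1 at 0 in 2 libraries, Cd5 in 3 and Cd6 in 1. The part of T cells in the Ccr7 and S1pr1 changes was not tested.

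**Figure D2:**
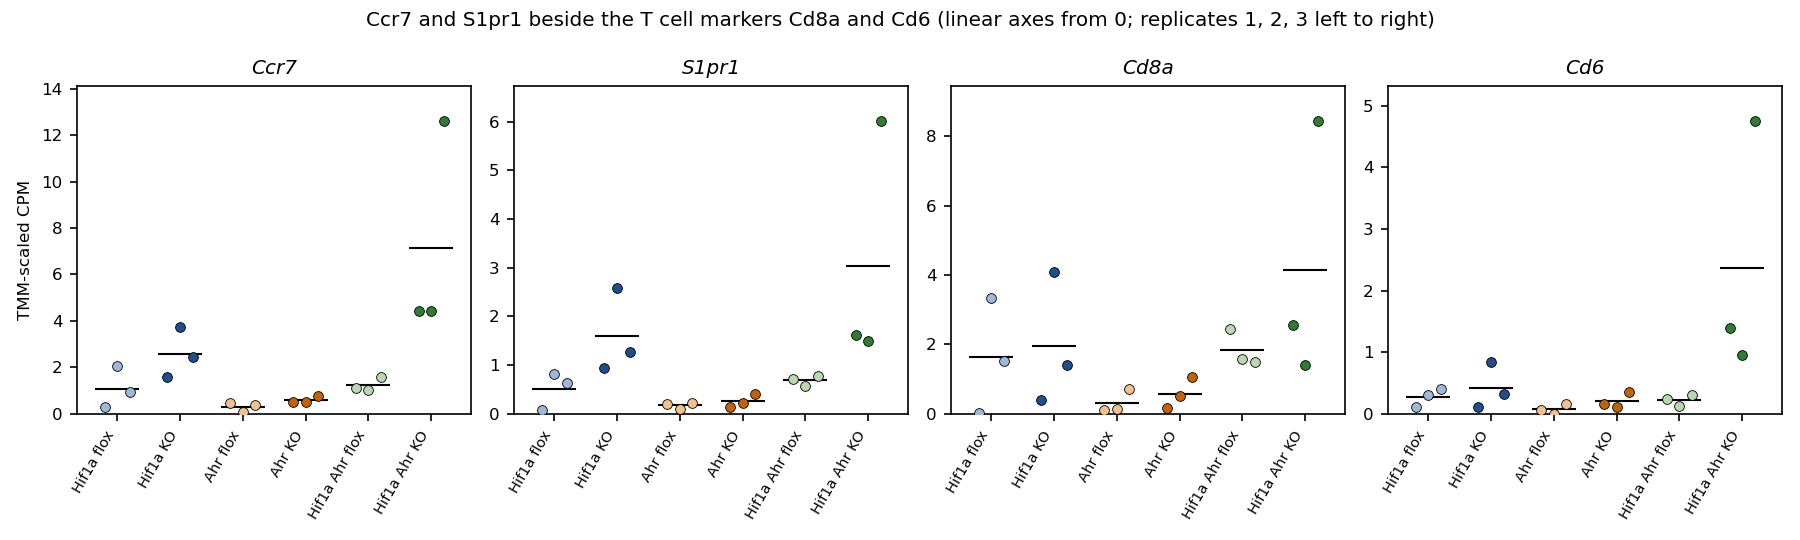
TMM-scaled CPM of Ccr7, S1pr1 and the T cell genes Cd8a and Cd6 in each library (replicates 1, 2 and 3 from left to right within a group), with the mean of 3 as a bar, on linear axes from 0. Hif1a Ahr KO replicate 3 is the highest library for Ccr7 (12.6 CPM), S1pr1 (6.01), Cd8a (8.44) and Cd6 (4.75).

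Differences between the lines were tested as contrasts of the changes. Each line had its own flox group, and in these contrasts line background or batch cannot be told apart from the genes deleted. The Hif1a KO and Ahr KO changes differed for 4 of 8 members, where 32.3% of all genes differed. Cxcr3 (1.95 ± 0.24, adjusted p = 8.66e-06) and Cxcr4 (-2.23 ± 0.31, adjusted p = 5.31e-05) changed in opposite senses in the 2 lines, though the Ahr KO change of Cxcr4 alone was not called. Cx3cr1 (-1.58 ± 0.49, adjusted p = 0.0194) and Ccr2 (0.35 ± 0.12, adjusted p = 0.0263) also differed, and S1pr5 did so only with the replicate block (-0.67, adjusted p = 0.00898). Ccr2 lost this difference in 6 of 12 fits that left out 1 library, up to an adjusted p of 0.0866, and Cx3cr1 in 2, when replicate 1 of either Hif1a group was left out, up to 0.0572.

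Against the Ahr KO change, the Hif1a Ahr KO change differed for 3 of 8 members, where 16.4% of all genes differed. These were Cxcr3 (1.68 ± 0.24, adjusted p = 9.6e-05), Cxcr4 (-1.46 ± 0.31, adjusted p = 0.00357) and Ccr2 (0.54 ± 0.12, adjusted p = 0.00317). Against the Hif1a KO change, only Cx3cr1 differed (1.92 ± 0.51, adjusted p = 0.0245), where 9.63% of all genes did. This call was lost without Hif1a flox, Hif1a KO or Hif1a Ahr flox replicate 1 and without Hif1a Ahr KO replicate 3, which left the difference at 1.3 to 2.33 over the 12 libraries left out in turn. The deeper fall of Cxcr6 with both genes deleted was not told apart from that with Hif1a alone (-1.49 ± 0.52, adjusted p = 0.0909) or with Ahr alone (-1.59 ± 0.52, adjusted p = 0.0545), although DESeq2 called both (adjusted p = 0.0379 and 0.0181). The rise of Ccr7 in Hif1a Ahr KO was likewise not told apart from its change in Hif1a KO (1.29 ± 0.82, adjusted p = 0.358), nor that of S1pr1 (0.48 ± 0.92, adjusted p = 0.801).

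**Figure D3:**
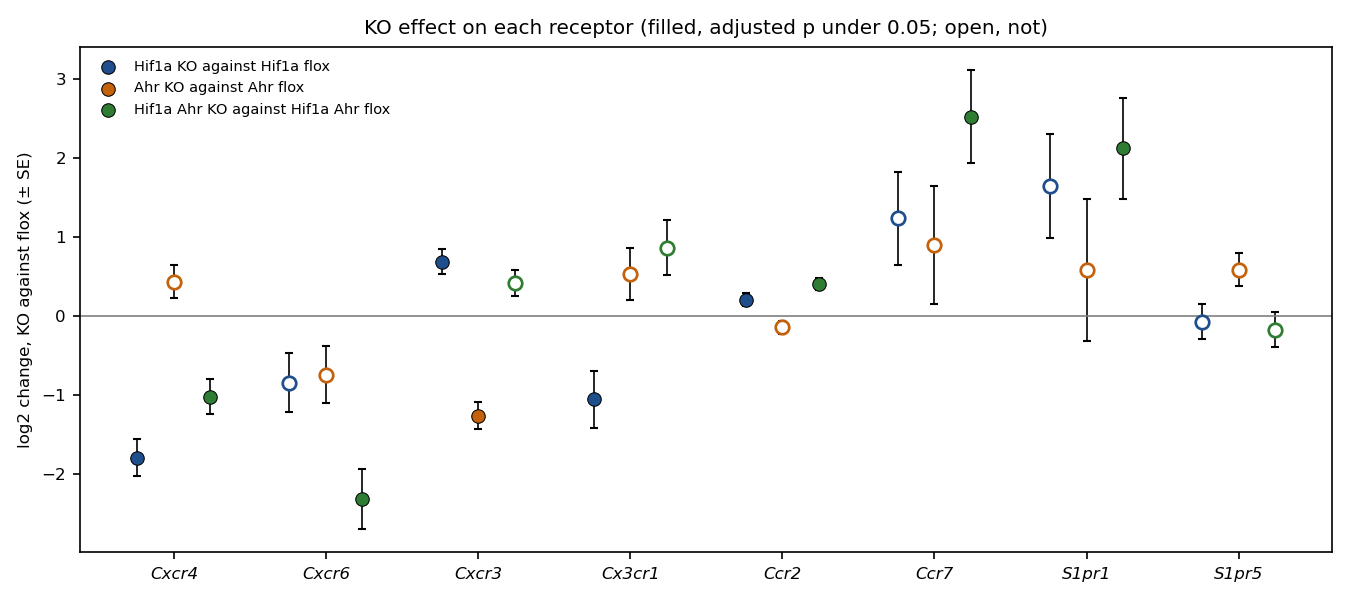
Log2 change of each receptor in KO against flox cells of the same line (points, with SE bars), blue for the Hif1a line, orange for the Ahr line and green for the line with both genes; filled points passed an adjusted p of 0.05. Cxcr3 lies on opposite sides of 0 in the Hif1a (0.69) and Ahr (-1.26) lines, and Cxcr6 is lowest with both genes deleted (-2.32).

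The change with both genes deleted was then set against the sum of the 2 single changes on the log2 scale. Ncr1 iCre was present in every KO group and in no flox group. Whatever Cre did by itself thus enters both terms of the sum, but the change with both genes deleted only a single time. The comparison with the sum therefore does not isolate the 2 deletions, and the part of Cre in it was not tested. For Cxcr4 the sum was -1.35 and the observed change -1.02, for Cxcr6 -1.58 and -2.32, for Ccr7 2.14 and 2.53, and for S1pr1 2.24 and 2.13. Cxcr3 had a sum of -0.57 and an observed change of 0.42, and Cx3cr1 -0.52 and 0.87, so these receptors lay on opposite sides of 0. No member departed from the sum by edgeR, DESeq2 or limma voom, where 0.0358% of all genes did by edgeR. At an unadjusted p under 0.05, edgeR gave 3 members: Cxcr3 (0.99 ± 0.29, adjusted p = 0.556), Ccr2 (0.33 ± 0.14, adjusted p = 0.814) and Cx3cr1 (1.38 ± 0.60, adjusted p = 0.814). The departure of S1pr1 was -0.11 ± 1.22 and that of Ccr7 0.39 ± 1.13, so these sums were known only loosely.

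**Figure D4:**
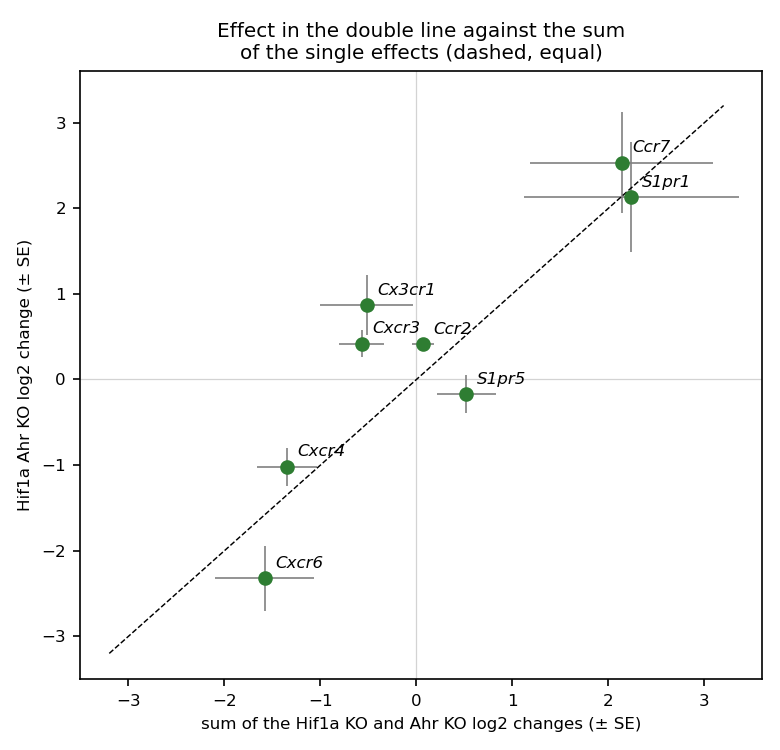
Log2 change of each receptor in Hif1a Ahr KO against Hif1a Ahr flox (vertical axis) against the sum of its Hif1a KO and Ahr KO changes (horizontal axis), with SE bars; the dashed line marks equal values. Cxcr3 and Cx3cr1 lie left of 0 on the horizontal and above 0 on the vertical axis, and no departure passed the adjusted test. Both terms of the sum include whatever Cre did by itself, and the vertical axis includes it only a single time.

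Genes beside the receptors on the chromosome were read to see whether whole neighbourhoods changed. Up to 20 tested neighbours of each member were read in the RefSeq gene order (GRCm38.p6). The neighbours' median change in Hif1a KO was 0.01 for Cxcr4 on chromosome 1 and 0.09 for Cxcr3 on chromosome X (log2). Among the 4 members on chromosome 9, the neighbours of Cxcr6 and Ccr2 had medians of -0.05 and -0.07 in Hif1a KO. In Hif1a Ahr KO these were -0.22 and -0.25. Cxcr6 and Ccr2 lie close together, so their neighbours are partly the same genes. The neighbours of Cx3cr1 had medians of -0.37 in Hif1a KO and -0.3 in Hif1a Ahr KO, and those of S1pr5 -0.14 and -0.01.

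Of 22 other chemokine and S1P receptors 14 were tested. In Hif1a KO 1 rose and 2 fell, in Hif1a Ahr KO 1 rose and 4 fell, and in Ahr KO none was called by edgeR or limma voom, with 5 at an unadjusted p under 0.05 and 1 by DESeq2. Their medians were -0.42, -0.10 and -0.09 (log2) in that order, where edgeR called 35.4%, 31.3% and 6.92% of all genes. With the replicate block 1 rose and 4 fell in Hif1a KO and 3 rose and 1 fell in Ahr KO. The block called 40.7% and 14.5% of all genes there. Cmklr1, the chemerin receptor, fell in Hif1a KO by 1.09 ± 0.33 (log2, adjusted p = 0.0166) and in Hif1a Ahr KO by 1.77 ± 0.34 (adjusted p = 0.000949). The Hif1a KO call did not hold when flox replicate 2, KO replicate 1 or KO replicate 3 of that line was left out (adjusted p = 0.0579 to 0.0746) and without the low-count filter (adjusted p = 0.0605). Xcr1, the receptor of XCL1, fell in Hif1a Ahr KO by 3.40 ± 0.48 (adjusted p = 3.01e-05) from a level of only 0.63 ± 0.209 CPM (SD, n = 3). Xcr1 also marks dendritic cells, and H2-Ab1, another gene of the dendritic cell list, fell with it by 2.90 ± 0.16 (adjusted p = 8.4e-10), from 39.4 ± 0.693 to 5.30 ± 1.55 CPM. Zbtb46 of the same list went the other way, from 6.16 ± 2.56 to 8.66 ± 1.39 CPM, with overlap and without being called. Flt3 never exceeded 0.109 CPM and Siglech 0.0718 CPM in any library. The part of dendritic cells in the Xcr1 change was not tested. Gpr183, which reads oxysterols and places cells within lymphoid tissue, rose there by 1.37 ± 0.23 (adjusted p = 0.000194). The B follicle receptor Cxcr5 rose in Hif1a KO by 2.52 ± 0.87 (adjusted p = 0.0368), from 0.238 ± 0.247 to 1.39 ± 1.18 CPM. Cxcr5 missed the threshold when flox replicate 1 (adjusted p = 0.11), flox replicate 3 (adjusted p = 0.115) or KO replicate 2 of the line was left out (1.55, adjusted p = 0.21), without the low-count filter (adjusted p = 0.102) and with the line's 6 libraries alone (adjusted p = 0.0933).

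Of 21 ligand genes 15 were tested, and 1 rose and 3 fell in Hif1a KO, none rose and 2 fell in Hif1a Ahr KO, and none was called in Ahr KO by edgeR or limma voom, with 1 at an unadjusted p under 0.05 and 1 by DESeq2. Over all genes edgeR called 35.4% in Hif1a KO, 31.3% in Hif1a Ahr KO and 6.92% in Ahr KO. With the replicate block 2 rose and 5 fell in Hif1a KO and 1 rose and 1 fell in Ahr KO. The block called 40.7% and 14.5% of all genes in these 2 lines. Without it, 4 ligand genes had an unadjusted p under 0.05 in Hif1a Ahr KO. Cxcl16, the ligand of CXCR6, fell by 2.97 ± 0.53 (log2) in Hif1a KO (adjusted p = 0.000295) and by 1.54 ± 0.43 in Hif1a Ahr KO (adjusted p = 0.0104). The call in Hif1a Ahr KO was lost without Hif1a Ahr flox replicate 3 (-1.11, adjusted p = 0.0713), in limma voom (adjusted p = 0.052) and with the line's 6 libraries alone (adjusted p = 0.0585). Cx3cl1, the ligand of CX3CR1, fell by 1.95 ± 0.31 (adjusted p = 9.56e-05) and 1.20 ± 0.30 (adjusted p = 0.00474). Both ligands were scarce, at most 1.27 CPM for Cxcl16 and 2.09 CPM for Cx3cl1 in any library. Xcl1, a chemokine that NK cells make to draw dendritic cells, rose in Hif1a KO from 78.8, 155.9 and 62.1 to 496.2, 733.9 and 358.7 CPM without overlap, by 2.42 ± 0.66 (adjusted p = 0.0117). Leaving out flox replicate 1 (2.28, adjusted p = 0.0502) or flox replicate 3 (2.17, adjusted p = 0.0529) of the line left Xcl1 just short of the threshold. In Hif1a Ahr KO the change of Xcl1 was 1.48 ± 0.63 (adjusted p = 0.0975).

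Genes that carry or end chemokine receptor signals moved both ways. Of 26 such genes 24 were tested, and 2 rose and 5 fell in Hif1a KO, 2 rose and 3 fell in Ahr KO, and 1 rose and 8 fell in Hif1a Ahr KO, with library totals in place of TMM giving 6 higher and 8 lower in the last. The medians lay at -0.09, -0.0 and -0.09 (log2), where 35.4%, 6.92% and 31.3% of all genes were called without that change of scaling. Arrb1, which encodes beta-arrestin 1 and uncouples receptors, held 348.6, 347.6 and 388.9 CPM in Hif1a flox and 76.1, 83.5 and 59.5 CPM in Hif1a KO, and fell by 2.31 ± 0.13 (adjusted p = 1.4e-09). It fell by 2.90 ± 0.14 in Hif1a Ahr KO (adjusted p = 1.26e-10) and was not called in Ahr KO (-0.39 ± 0.13, adjusted p = 0.0793). Grk6, a receptor kinase, fell in both lines with Ahr deleted, by 0.37 ± 0.06 (adjusted p = 0.00068) and 0.45 ± 0.06 (adjusted p = 1.11e-05). Rgs16, which shortens G protein signals, fell by 1.40 ± 0.22 in Hif1a KO (adjusted p = 0.000232) and rose by 1.02 ± 0.22 in Ahr KO (adjusted p = 0.0135), the latter not called when flox replicate 1, flox replicate 3 or KO replicate 2 of the Ahr line was left out (adjusted p = 0.0617 to 0.0819). Cd69, whose protein removes S1PR1 from the surface, fell in Ahr KO from 107.8, 183.1 and 220.5 CPM to 45.5, 61.5 and 66.6 CPM, by 1.56 ± 0.31 (adjusted p = 0.00955). It fell by 1.09 ± 0.31 in Hif1a Ahr KO (adjusted p = 0.0157), which was lost without Hif1a Ahr flox replicate 1 or Hif1a Ahr KO replicate 2 or 3 (adjusted p = 0.0508 to 0.0736).

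Of 14 genes of S1P synthesis, transport and breakdown 11 were tested, and 2 rose and 1 fell in Hif1a KO, 1 rose in Ahr KO and 5 rose and 1 fell in Hif1a Ahr KO, with medians of 0.05, 0.14 and 0.31 (log2). Of all genes 35.4%, 6.92% and 31.3% were called in this order of lines. With the replicate block 3 rose and 3 fell in Hif1a KO and 4 rose and 1 fell in Ahr KO, where it called 40.7% and 14.5% of all genes. Spns2, an S1P exporter, fell from 21.8, 17.1 and 29.9 CPM to 3.37, 2.66 and 3.2 CPM in Hif1a KO, by 2.90 ± 0.22 (adjusted p = 6.45e-08), and by 2.18 ± 0.21 in Hif1a Ahr KO (adjusted p = 1.19e-06). Plpp1, a lipid phosphatase of the cell surface, rose by 1.34 ± 0.20 (adjusted p = 4.02e-05) and 1.37 ± 0.19 (adjusted p = 3.07e-05). Sgpl1, the S1P lyase, rose by 0.30 ± 0.08 in Ahr KO (adjusted p = 0.0379) and 0.48 ± 0.08 in Hif1a Ahr KO (adjusted p = 0.000286). The Ahr KO call was lost in 5 of 6 fits that left out 1 library, all but the one without Ahr flox replicate 2 (adjusted p = 0.0632 to 0.161), and with library totals (adjusted p = 0.0525).

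Adhesion and rolling genes, which act beside the receptors at the vessel wall, moved both ways, with 21 of 22 tested. In Hif1a KO 7 rose and 7 fell, in Ahr KO 3 rose and 3 fell, and in Hif1a Ahr KO 8 rose and 5 fell, with medians of 0.19, 0.06 and 0.29 (log2). Over all genes 35.4%, 6.92% and 31.3% were called in this order. The collagen-binding integrin Itga1 fell in Hif1a KO from 212.7, 218.5 and 234.4 CPM to 59.4, 77.2 and 44.6 CPM, by 1.88 ± 0.19 (adjusted p = 4.02e-06). It fell by 1.87 ± 0.19 in Hif1a Ahr KO (adjusted p = 4.59e-06) and was not called in Ahr KO (0.30 ± 0.19, adjusted p = 0.415). St3gal6, a sialyltransferase, rose by 0.94 ± 0.07 in Hif1a KO (adjusted p = 9.21e-09) and fell by 0.33 ± 0.07 in Ahr KO (adjusted p = 0.0056). With both genes deleted it rose by 0.54 ± 0.07 (adjusted p = 8.99e-06). The core glycan enzyme Gcnt1 fell by 0.64 ± 0.08 in Ahr KO (adjusted p = 0.000113). There the replicate block gave 7 higher and 5 lower genes of this list, and it called 14.5% of all genes.

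**Figure D5:**
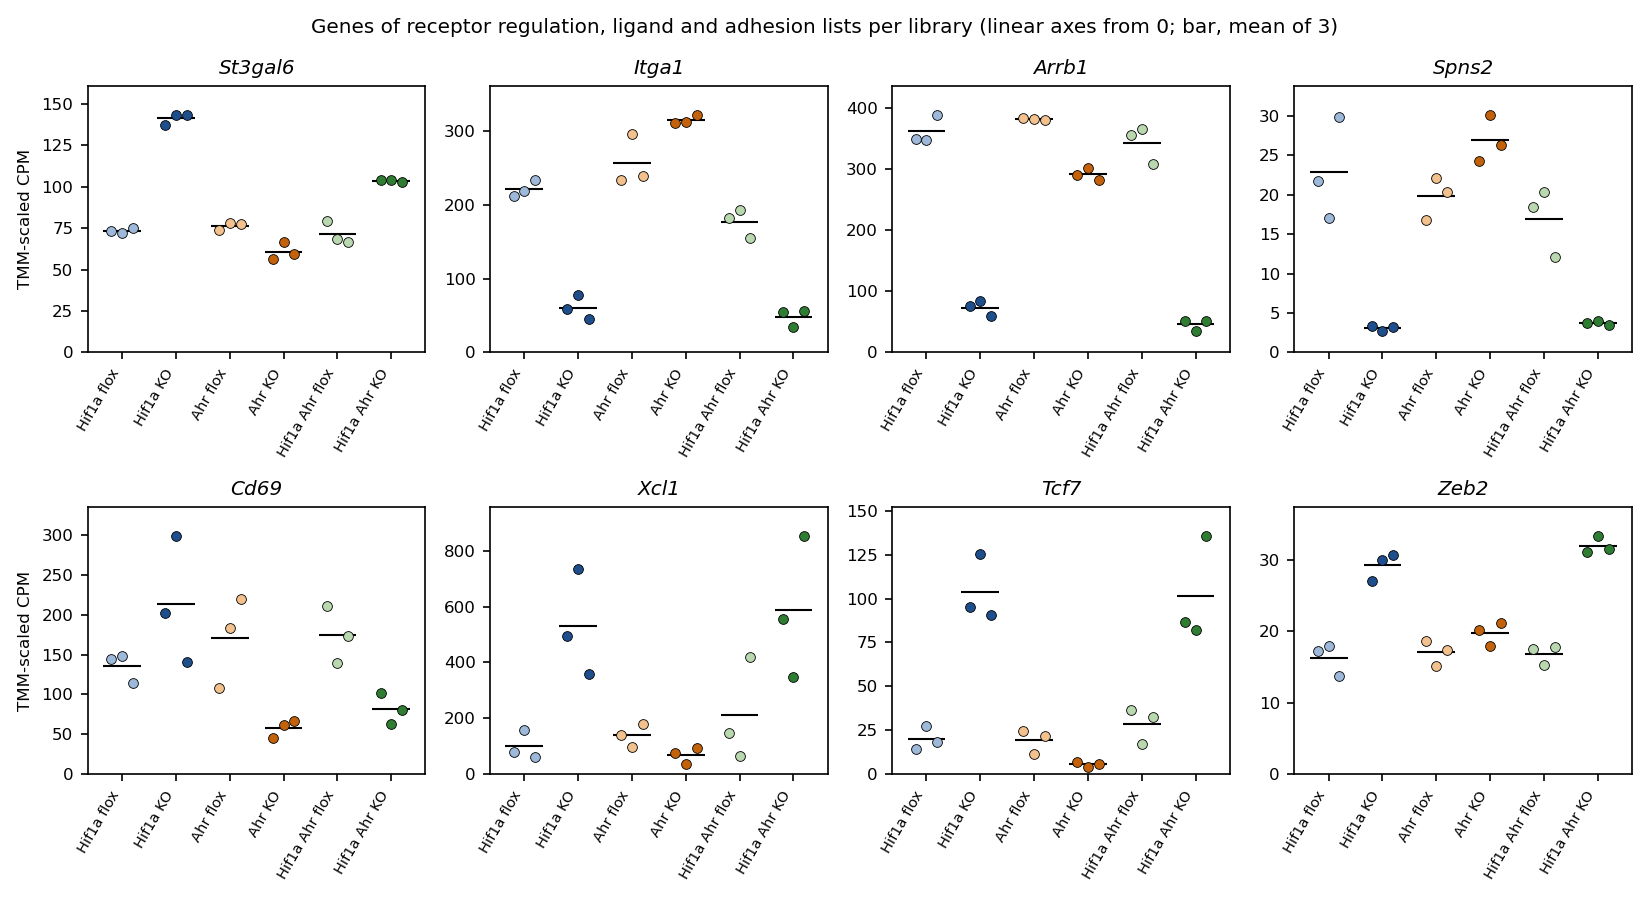
TMM-scaled CPM per library (points) and mean of 3 (bar) for 8 genes of the receptor signalling, S1P, adhesion, ligand and transcription factor lists, on linear axes from 0. St3gal6 and Xcl1 are high and Itga1, Arrb1 and Spns2 low in Hif1a KO, and Cd69 and Tcf7 are low in Ahr KO.

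All 16 transcription factors known to set homing receptors were tested. In Hif1a KO 5 rose and 4 fell, in Ahr KO 1 rose and 3 fell, and in Hif1a Ahr KO 5 rose and 2 fell, with medians of -0.01, 0.14 and 0.18 (log2). Over all genes 35.4%, 6.92% and 31.3% were called in the same order. With the replicate block 3 rose and 5 fell in Ahr KO, where it called 14.5% of all genes. Zeb2, a factor of NK cell maturation, rose by 0.84 ± 0.10 (adjusted p = 5.36e-06) in Hif1a KO and 0.92 ± 0.10 (adjusted p = 1.95e-06) in Hif1a Ahr KO, and Prdm1 fell by 1.28 ± 0.19 (adjusted p = 0.000127) and 1.08 ± 0.19 (adjusted p = 0.000604). Tcf7, which encodes TCF-1, stood at 14.3, 27.2 and 17.9 CPM in Hif1a flox and 95.3, 125.2 and 90.7 CPM in Hif1a KO, at 24.7, 11.2 and 21.5 CPM in Ahr flox and 6.71, 3.91 and 5.64 CPM in Ahr KO, without overlap in either line. It rose in Hif1a KO by 2.39 ± 0.37 (adjusted p = 0.000235), fell in Ahr KO by 1.82 ± 0.39 (adjusted p = 0.0142) and rose in Hif1a Ahr KO by 1.82 ± 0.36 (adjusted p = 0.00182). In the Ahr line Tcf7 was not called when replicate 3 of either group, flox replicate 1 or KO replicate 2 was left out (adjusted p = 0.051 to 0.0778). Foxo1, a known activator of Ccr7 and S1pr1, fell in Ahr KO by 0.39 ± 0.08 (adjusted p = 0.00845), but not without Ahr flox replicate 3 (-0.30, adjusted p = 0.0564). Klf2 was not called in any line, at -0.10 ± 0.38, -0.48 ± 0.38 and -0.71 ± 0.38 (adjusted p = 0.87, 0.545 and 0.182).

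The genes whose log2 CPM ran most like each receptor across the 18 libraries were ranked by Pearson's r among 9430 genes, as a description in which the groups themselves set much of the likeness. For Cxcr4 these were Ppp1r3b (r = 0.95) and Slc25a1 (0.94), and for Cxcr6 Gm2a (0.97) and Kcnk5 (0.96). Cxcr3 ran with Sla and Rab37 (0.93 each), Ccr2 with Sft2d2 (0.92) and Myo5a (0.91), and Cx3cr1 with Rasal3 (0.89) and Mllt6 (0.85). Ccr7 ran with Vav2 (0.92) and Galc (0.91), S1pr1 with Lta (0.90) and Ap2a2 (0.87), and S1pr5 with Gdpd5 (0.81) and Samd1 (0.78).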

How the data were processed

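RNA of 18 NK cell libraries, 3 for each of 6 groups, was sequenced. Per the submitters' processing notes the authors used Trim Galore 0.6.4, kallisto 0.4.6, edgeR 3.17 and the GRCm39 build, with settings and transcript annotation not given in the sources used here. The authors deposited estimated counts per gene, which are not normalised, and log2 CPM values. The deposited log2 CPM were recomputed from the estimated counts with a prior count of 2, differed by at most 7.1e-15, and were not used further. Totals of about equal size in all libraries mean that depth hardly differed, and precision was set by the spread among 3 replicates.

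Of the gene identifiers, 52029 had a symbol, and those without held 0.32% of counts. Tests ran in R 4.3.3 with edgeR 4.0.16: TMM factors (0.941 to 1.064), filterByExpr by group, 1 mean per group over 18 libraries and robust quasi-likelihood F tests, 2-sided, with adjustment over 16747 genes (common biological coefficient of variation 0.117). SE is the log2 change divided by the square root of F. CPM are full-total CPM divided by the TMM factor. A simulation of the Hif1a comparison with 16433 genes called 80% and 78% of genes changed by 1 and -1 (log2), 100% and 94% at 2 and -2, and 0.1% of unchanged genes. It changed 50 genes at each size, drawn from genes above a floor of mean counts. These are far fewer changed genes than were called in the real comparison. The shares were not given separately for genes with few counts.

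Deviations from the group means of same-numbered KO and flox libraries correlated at 0.31, 0.53 and 0.30 in the Hif1a line and 0.36, 0.33 and 0.53 in the Ahr line, so that the numbers pair these libraries. The labels do not say what a number shares. Alternatives were DESeq2 1.42.0 on rounded counts, limma 3.58.1 voom, RLE factors, library totals, no filter, the line's 6 libraries, the replicate block, and each library left out. Receptors and pathway lists were chosen with earlier results of these data known. Named are all receptors and up to 4 called genes of each list by smallest adjusted p in each comparison, with further list genes given by value. Lengths per kilobase come from a GENCODE M21 annotation (GRCm38), and promoter sequences from RefSeq (GRCm38.p6). Some genes of the lists enter the counts but are not reported here by name.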

Additional observations from a re-analysis of the deposited data

Results flagged for a closer look

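8 differences between the changes of the lines passed the test of the difference itself (edgeR, adjusted p under 0.05; log2). Between Hif1a KO and Ahr KO these were Cxcr3 at 1.95, Ccr2 at 0.35, Cxcr4 at -2.23 and Cx3cr1 at -1.58, where a positive value means a higher change in Hif1a KO. Between Hif1a Ahr KO and Ahr KO they were Cxcr3 at 1.68, Ccr2 at 0.54 and Cxcr4 at -1.46. Between Hif1a Ahr KO and Hif1a KO it was Cx3cr1 at 1.92. Cxcr3 was the only receptor of the 8 that was called in opposite directions in the single lines. Its value with both genes deleted lay nearer to Hif1a KO than to Ahr KO.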

How the results depend on the processing

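The replicate block, which rests on numbers that paired the libraries in the Hif1a and Ahr lines, gave 7 called receptors in Hif1a KO with 6814 genes called over the whole table, 2 in Ahr KO with 2423 genes called, and it removed no receptor call in these lines. Hif1a Ahr libraries paired less clearly, with same-numbered correlations of 0.07, 0.45 and 0.27. Hif1a Ahr flox replicate 1 correlated slightly more with KO replicate 3 (0.09) than with KO replicate 1. There the block called Cx3cr1 as well (0.78, adjusted p = 0.0422), and it gave 5 called differences from the Ahr KO change and 2 from the Hif1a KO change. Using only the 6 libraries of a line gave 2 called receptors in Ahr KO, where the 7 alternatives together ran from 1024 to 2423 called genes. In Hif1a Ahr KO the line's 6 libraries gave 3100 called genes over the whole table. DESeq2 gave 2 called differences between Hif1a Ahr KO and Hif1a KO. The shares of all genes called for these differences by the block and by DESeq2 are not reported here.

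With each library left out in turn, genes called ran from 467 to 1333 in Ahr KO (lowest without Ahr flox replicate 1). Receptors called ran from 2 to 4 in Hif1a KO (2 when replicate 1 of either group or replicate 3 of the KO was left out), where 4787 to 5445 of all genes were called. Called differences between Hif1a Ahr KO and Ahr KO ran from 3 to 5 (5 without Hif1a Ahr KO replicate 3). Those between Hif1a Ahr KO and Hif1a KO ran from 0 to 2 (0 without Hif1a flox, Hif1a KO or Hif1a Ahr flox replicate 1, 2 without Hif1a Ahr KO replicate 1). The cause was not tested.

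Signs turned only for values that were not called. With library totals these were S1pr5 in Hif1a KO (0.03), the Hif1a KO and Ahr KO difference of Cxcr6 (0.04), and Ccr2 (-0.01) and S1pr5 (-0.03) between Hif1a flox and Ahr flox. With limma voom they were the difference of S1pr1 between Hif1a Ahr KO and Hif1a KO (-0.22) and the departure of Ccr7 from the sum (-0.28). With a library left out, S1pr5 ran from -0.19 to 0.02 in Hif1a KO and from -0.43 to 0.03 in Hif1a Ahr KO. Differences from Hif1a KO in Hif1a Ahr KO ran from -0.49 to 1.01 for S1pr1 and -0.37 to 0.1 for S1pr5, and that from Ahr KO from -0.28 to 0.61 for Cx3cr1. Those between Hif1a KO and Ahr KO ran from -0.1 to 1.17 for Ccr7 and -0.3 to 0.13 for Cxcr6, and departures from the sum from -0.44 to 0.83 for Ccr7 and -1.08 to 0.42 for S1pr1. Between Hif1a flox and Ahr flox the ranges were -0.02 to 0.08 for Ccr2, -0.35 to 0.04 for Cx3cr1, -0.07 to 0.16 for Cxcr3, -0.07 to 0.25 for Cxcr4 and -0.13 to 0.1 for S1pr5. Between Hif1a Ahr flox and Ahr flox they were -0.01 to 0.24 for Cxcr3 and -0.02 to 0.37 for S1pr5. Between Hif1a Ahr flox and Hif1a flox they were -0.26 to 1.01 for Ccr7, -0.05 to 0.21 for Cxcr3, -0.07 to 0.95 for S1pr1 and -0.04 to 0.35 for S1pr5.

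For the receptors' changes within the lines, 279 alternative values kept direction and side of the threshold, 17 lost a call, 13 gained one and 3 changed sign. Alternatives for the pathway list counts and for single list genes were chosen after seeing the data, and 94 of the count values moved by over 1.5 times while 374 did not. Few counts limit Ccr7 and S1pr1, with 4 to 5 estimated counts in the lowest flox libraries.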
